A study of Mus musculus with 17 samples.

Results

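The effect of the Notch ligand presented by the stroma was compared between Kit- and Kit+ cells of the aorta-gonad-mesonephros (AGM) region, the embryonic site at which haematopoietic stem cells arise. For each gene, the Kit- ligand effect (Kit-J minus Kit-D) was set against the Kit+ ligand effect (Kit+J minus Kit+D), and their difference was tested. Of the 17 arrays of the series, 11 carry cells that had been on stroma and enter this difference. The cells were pooled from AGM regions of E11.5 mouse embryos, sorted as CD31+CD45-Ter119-, kept for 2 h on OP9 cells and sorted again by Kit. OP9 is a mouse bone marrow stromal line, here made to overexpress Jag1 (OP9-Jag1) or Dll4 (OP9-Dll4), and the medium held haematopoietic and endothelial growth factors in all groups. The Kit- cells from OP9-Jag1 (Kit-J) gave 2 arrays and the Kit- cells from OP9-Dll4 (Kit-D) gave 3. The Kit+ cells gave 3 arrays from OP9-Jag1 (Kit+J) and 3 from OP9-Dll4 (Kit+D), and replicates came from independent sorts. The 6 other arrays hold fresh Kit- and Kit+ cells, 3 each, from an earlier series. They add only to the estimate of the spread. No cells on OP9 without an added ligand were analysed here, so each effect is Jag1 against Dll4 and not the effect of either ligand alone.

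Notch receptors are cut when a ligand on a neighbouring cell binds them, and the freed intracellular part joins the DNA-binding protein RBPJ to switch on target genes. Dll4 and Jag1 are both ligands of Notch1. In the embryonic aorta, Dll4 is known for arterial identity and Jag1 for the formation of blood stem cells, which bud from endothelium in the endothelial-to-haematopoietic transition while endothelial genes are turned down. The stem cell factor receptor Kit marks the budding clusters, and also primordial germ cells, which migrate through the same region and can carry CD31.

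The labels were checked first. On 4 of the 11 arrays (both Kit-J arrays and the third array of each OP9-Dll4 group) a line of the sample record names the opposite Kit population, and the groups here follow the titles and sources. The log2 signal of Kit itself was 9.08 and 8.50 in Kit-J, against 7.72, 7.05 and 8.02 in Kit-D, while Kit+J was at 9.93, 9.02 and 9.30, against 8.98, 8.51 and 8.99 in Kit+D. Kit-D thus lay below all other arrays on stroma, while Kit-J overlapped the Kit+ groups. Over the 13767 genes above background in at least 1 of the 4 groups, Kit-J replicate 1 differed on average by 0.443 (absolute log2) from the Kit+J mean and by 0.621 from the Kit-D mean. For Kit-J replicate 2 these values were 0.339 and 0.463. Kit-D replicate 3, by contrast, lay at 0.251 from the mean of the other Kit-D arrays and at 0.512 from the Kit+D mean. Kit+D replicate 3 lay at 0.478 from the mean of the other Kit+D arrays, nearer to Kit+J (0.401) and fresh Kit+ cells (0.438), and at 0.577 from Kit-D. Kit+D replicate 1, whose record has no conflict, lay at 0.493 from its group's other arrays and at 0.471 from fresh Kit+ cells. For Kit+D replicate 2 these values were 0.302 and 0.394. All Kit+J arrays were likewise nearer to fresh Kit+ cells (0.321, 0.391 and 0.329) than to the other Kit+J arrays (0.337, 0.417 and 0.357). Being nearer to fresh Kit+ cells than to the own group thus also occurred in Kit+ arrays without a conflicting record. Each own-group mean leaves out the array itself and so rests on fewer arrays than the fresh mean, which favours the fresh group. These Kit+ values therefore do not bear on the records of the Kit-J arrays. The 2 Kit-J arrays lay at 0.45 from each other. Both Kit-J arrays were also nearer to fresh Kit+ cells (0.428 and 0.299) than to fresh Kit- cells (0.495 and 0.355). Whether Kit-J cells had changed in culture or the arrays hold other cells than their titles state cannot be told apart in these data, and every difference below includes Kit-J.

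The difference of the ligand effects passed the test for 395 of 19937 genes (1.98%; limma, Benjamini-Hochberg adjusted p under 0.05). It was negative for 271 genes (1.36%), in which the Jag1 minus Dll4 value was lower in Kit- than in Kit+ cells, and positive for 124 (0.622%). Without adjustment 3298 genes (16.5%) had a p under 0.05. In the Kit- gate, 1869 genes (9.37%) differed between Kit-J and Kit-D, 658 higher (3.3%) and 1211 lower (6.07%). In the Kit+ gate, 449 genes (2.25%) differed between Kit+J and Kit+D, 115 higher (0.577%) and 334 lower (1.68%). Of the calls of the Kit- ligand effect 35.2% were higher with Jag1, which became 14.7% after scaling to housekeeping genes and 45% after another quantile normalization. For the Kit+ ligand effect these shares were 25.6%, 4.72% and 40.7%. The fresh arrays entered the shared estimate of the spread (median SD per gene 0.160 in fresh Kit- and 0.168 in fresh Kit+, against 0.220 in Kit-J, 0.161 in Kit-D, 0.252 in Kit+J and 0.257 in Kit+D). When only the 11 arrays on stroma were fitted, 44 genes passed, 5 positive and 39 negative, of which 41 were among the 395. The ligand effect difference was called in 91 genes without Kit-J replicate 1, in 811 without Kit-J replicate 2 and in 763 without Kit+D replicate 3. With the replicate number as a block it was called in 0, but the labels do not say that equal numbers share a culture. Without the 3 OP9-Dll4 arrays that stood apart in markers of other cells, 165 were called, 89 positive and 76 negative.

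**Figure D1:**
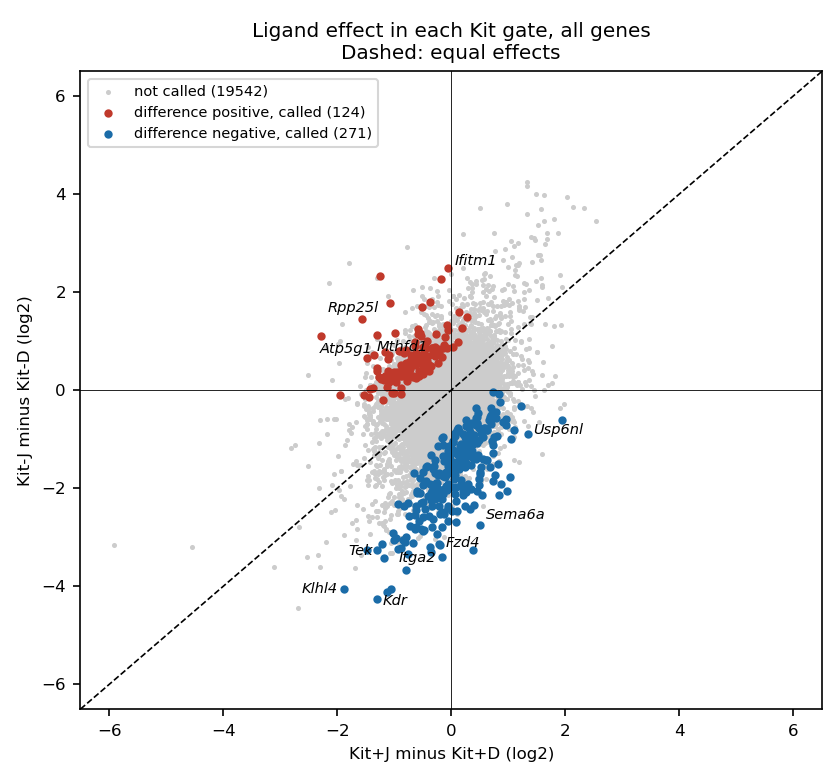
Ligand effect in Kit+ cells (x axis, Kit+J minus Kit+D, log2) and in Kit- cells (y axis, Kit-J minus Kit-D, log2) for each of 19937 genes, with the 124 positive and 271 negative called genes in colour and a dashed line where both effects are equal. Most called genes with a negative difference lie far below 0 on the y axis and near 0 on the x axis, whereas the positive ones lie higher on the y axis and to the left of 0.

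The negative differences came mainly from the Kit- gate. Of the 271 genes, 237 were lower with Jag1 in the Kit- gate and not called in the Kit+ gate, 9 were lower in both gates and 3 were lower in Kit- and higher in Kit+ cells. A further 9 were called only as higher with Jag1 in the Kit+ gate, and 13 were called in neither gate. The median difference of the 271 was -1.70, with a median of -1.68 for the Kit- effect and 0.04 for the Kit+ effect. The positive differences were divided between the gates. Of the 124 genes, 47 were higher in Kit-J only, 53 were lower in Kit+J only, 5 had both and 19 had neither. Their median difference was 1.24, from a median of 0.59 in Kit- and -0.68 in Kit+ cells, beside 0.06 for the difference over all genes.

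In most of these genes 1 group stood apart array by array. Among the 271 negative genes, all Kit-D arrays lay above all 8 other arrays on stroma in 205 (75.6%), beside 6.75% of all genes. Among the 124 positive genes, Kit+D lay above all others in 59 (47.6%, beside 2.99% of all genes) and Kit-D below all others in 33 (26.6%, beside 6.26%). Kit-J lay above all others in 4 positive genes (2.59% of all genes) and below in 9 negative ones (2.29%). Kit+J lay above in 8 negative genes (1.07%) and below in 13 negative and 5 positive ones (1.12%), and Kit+D below in 9 negative ones (2.39%). The genes were called on the same values, so these shares describe the calls and add no test.

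**Figure D2:**
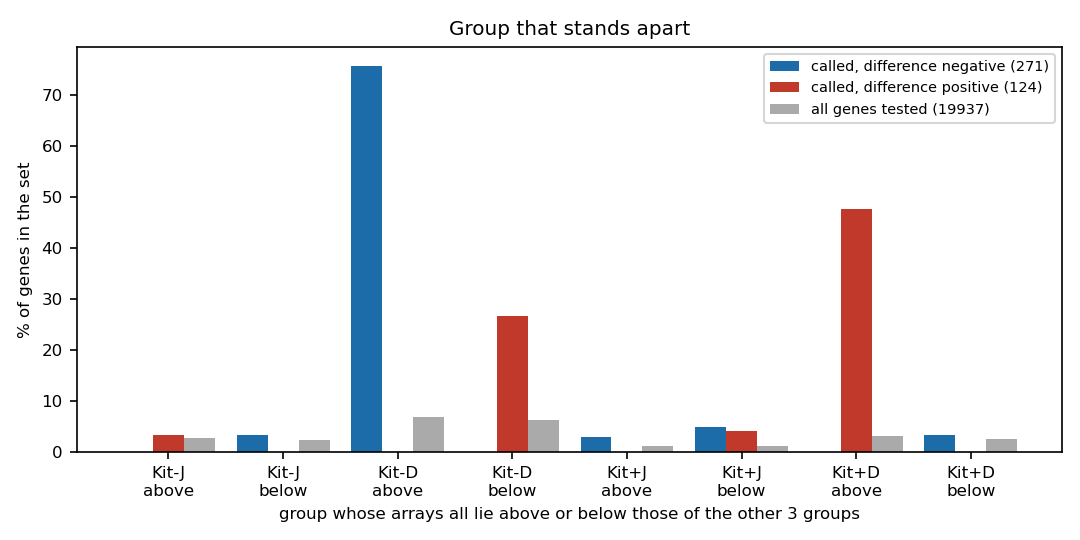
Percentage of genes (y axis) in which all arrays of the group named on the x axis lay above or below all arrays of the other 3 groups, for called genes with a negative (271) or positive (124) difference and for all 19937 genes tested. Kit-D stood above the others in 75.6% of the negative genes, and Kit+D above the others in 47.6% of the positive ones.

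Background signal limits what can be seen in a gate. The floor was set at 5.00 (log2), the 95th percentile of 1208 probe sets for olfactory and vomeronasal receptors, which these cells are not known to use. Group means were above it in all 4 groups for 199 negative and 89 positive genes. Both Kit+ groups lay at it for 40 negative and 2 positive genes, in which a ligand effect in Kit+ cells could not show. All 4 groups lay at the floor for 2 negative and 25 positive genes. Of 1194 receptor genes, 16 were called as positive and 0 as negative (1.34%; median difference 0.32). Their mean signal was 3.70 and 3.45 in Kit-J, against 3.25, 3.26 and 3.19 in Kit-D, while Kit+J was at 3.40, 3.67 and 3.50, against 3.46, 3.59 and 3.49 in Kit+D. Kit-D was therefore lower than every other array at background, and positive differences of dim genes are not read here as expression.

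Sema6a, which encodes a transmembrane semaphorin, Itga2, the alpha2 subunit of a collagen-binding integrin, and Fzd4, a Wnt and Norrin receptor of vascular endothelium, had large negative differences. Sema6a was at 6.08 and 6.08 in Kit-J, against 8.67, 8.93 and 8.91 in Kit-D, while Kit+J was at 6.55, 6.93 and 6.50, against 5.48, 6.47 and 6.52 in Kit+D. Kit-D did not overlap any other group, and both Kit+ groups were above the floor. The Kit- effect was -2.76 and the Kit+ effect 0.50, a difference of -3.26 (standard error 0.36, adjusted p = 0.00154 by limma; 0.0330 with only the arrays on stroma).

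Itga2 was at 4.93 and 5.58 in Kit-J, against 8.56, 8.47 and 8.95 in Kit-D, while Kit+J was at 4.68, 5.29 and 5.14, against 4.66, 5.62 and 5.33 in Kit+D. The means of its Kit+ groups and of Kit-J lay just above the floor, so the difference of -3.24 (standard error 0.36, adjusted p = 0.00154 by limma) is a Kit-D signal against little signal elsewhere. Fzd4 had the smallest adjusted p of all genes, with 4.70 and 4.41 in Kit-J, against 7.80, 7.37 and 7.94 in Kit-D, while Kit+J was at 4.64, 4.82 and 5.14, against 5.06, 5.22 and 4.94 in Kit+D (difference -2.94, standard error 0.27, adjusted p = 0.000467 by limma). Its Kit-J and Kit+J means were at the floor. Itga2 is also on the list of 16 megakaryocyte and platelet genes, of which it alone was called in the difference. In the Kit- gate 5 of the 16 were lower with Jag1 (6.07% of all genes). Among these were the platelet chemokine Ppbp (-2.99) and the platelet receptor Clec1b (-2.62). The mean of this list was 6.21 to 6.70 in Kit-J, against 6.89 to 7.95 in Kit-D, while Kit+J spanned 5.69 to 6.07, against 5.75 to 6.97 in Kit+D, and its part in the Itga2 value was not tested. Sema6a, Itga2 and Fzd4 kept their call without each array in turn.

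Ifitm1, an interferon-inducible membrane protein that is also high in primordial germ cells, went the other way. It was at 10.98 and 11.34 in Kit-J, against 9.47, 8.09 and 8.44 in Kit-D, while Kit+J was at 11.28, 11.48 and 11.25, against 11.499, 11.13 and 11.52 in Kit+D. Kit-D lay below the 8 other arrays, which spanned less than 1 log2 unit. The Kit- effect was 2.50 and the Kit+ effect -0.05 (difference 2.55, standard error 0.42, adjusted p = 0.0108 by limma). The call held without each array in turn and was lost with only the arrays on stroma (adjusted p = 0.0638).

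**Figure D3:**
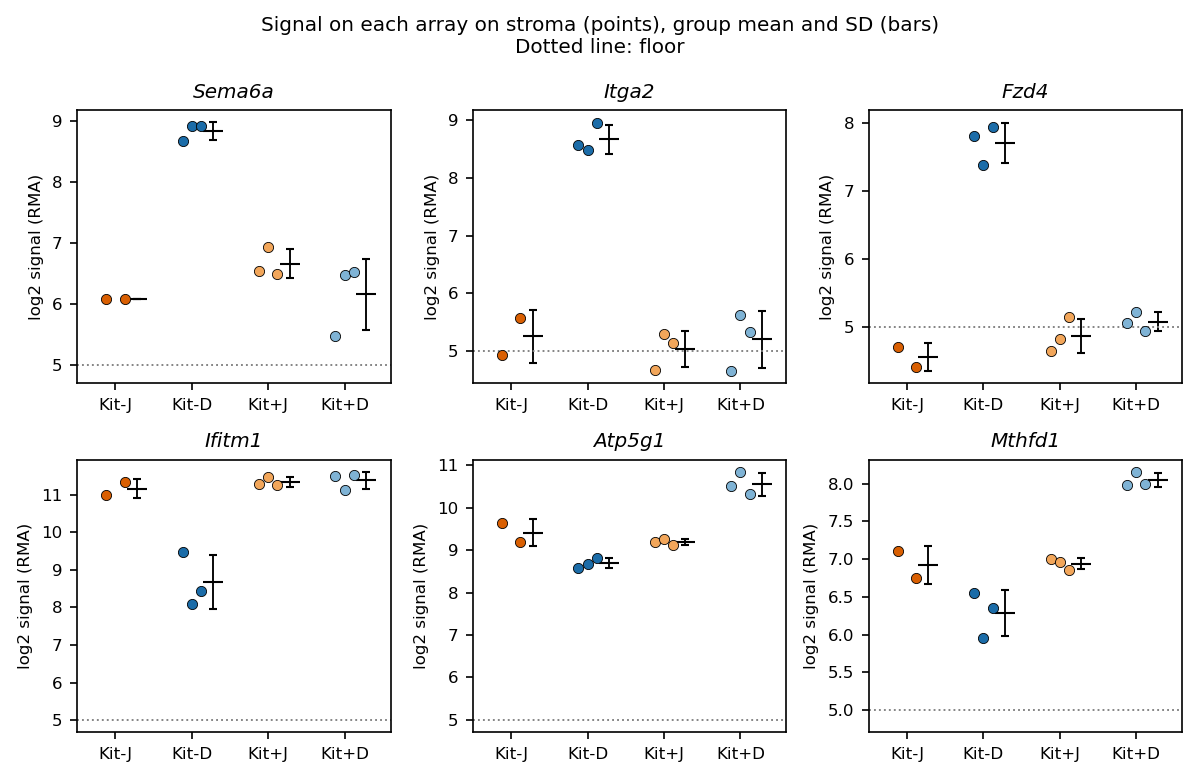
Log2 signal (y axis) of 6 genes on each of the 11 arrays on stroma (points), grouped by gate and ligand, with the group mean and SD beside the points and the floor of 5.00 as a dotted line. Kit-D stands above the other groups for Sema6a, Itga2 and Fzd4 and below them for Ifitm1, while Kit+D stands above them for Atp5g1 and Mthfd1.

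Guidance genes encode semaphorins, plexins, Robo and Flrt proteins that steer axons and sprouting vessels. Of 40 measured, 5 had a negative call (1.36% of all genes) and 0 a positive one. Their median difference was -0.51, beside 0.06 over all genes, and 32 of the 40 were below 0. Beside Sema6a these were Sema6d, Flrt2, Robo1 and Plxna4. Sema6d, another transmembrane semaphorin, was at 5.54 and 6.53 in Kit-J, against 9.57, 9.67 and 9.88 in Kit-D, while Kit+J was at 5.74, 5.33 and 5.68, against 5.68, 6.58 and 6.86 in Kit+D. Its difference was -2.88 (standard error 0.44, adjusted p = 0.00763 by limma). Flrt2, an adhesion protein and ligand of Unc5 receptors, had 5.00 and 6.72 in Kit-J, against 9.77, 10.06 and 10.12 in Kit-D, while Kit+J was at 4.61, 5.86 and 5.48, against 6.10, 6.65 and 6.58 in Kit+D. The difference of -3.00 had a standard error of 0.56 (adjusted p = 0.0179 by limma). The SD of its Kit-J arrays was 1.22, and the call was lost without Kit-J replicate 1 (0.0755) and without Kit-D replicate 3 (0.0502). Robo1, a Slit receptor, differed by -2.75 and the plexin gene Plxna4 by -1.22. Robo1 lost its call without Kit-J replicate 1 or either of Kit-D replicates 2 and 3 (adjusted p up to 0.124), and Plxna4 without any of 7 arrays (up to 0.120). Neuropilin 1 (Nrp1), a co-receptor of semaphorins and VEGF, was lower with Jag1 in both gates (-2.30 in Kit- and -1.17 in Kit+ cells), and its difference of -1.13 missed the threshold (adjusted p = 0.0556 by limma).

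Of 35 endothelial identity genes, 9 had a called negative difference (Clec14a, Esam, Flt1, Kdr, Mmrn2, Pecam1, Ptprb, Stab2 and Tek) and 0 a positive one, with a median of -1.15, beside 1.36% of all genes with a negative call. In the Kit- gate 31 of the 35 were lower with Jag1 (6.07% of all genes), and in the Kit+ gate 6 were (1.68% of all genes). Their mean signal was 6.36 to 6.65 in Kit-J, against 8.36 to 8.86 in Kit-D, while Kit+J spanned 5.70 to 5.89, against 6.22 to 6.68 in Kit+D. Kit-J therefore lay within the range of Kit+D. Bulk arrays cannot separate fewer endothelial cells from less endothelial RNA per cell.

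Kdr, the main VEGF receptor of endothelium, was at 5.11 and 6.38 in Kit-J, against 9.95, 9.83 and 10.26 in Kit-D, while Kit+J was at 4.81, 5.33 and 4.71, against 5.47, 6.38 and 6.89 in Kit+D. It was lower with Jag1 in Kit- cells by 4.27 (log2), and the Kit+ effect of -1.30 missed the threshold (adjusted p = 0.0583 by limma). The difference was -2.97 (standard error 0.51, adjusted p = 0.0121 by limma), and its adjusted p was 0.0644 without Kit-J replicate 1. The Kit+J mean of Kdr lay at the floor, so that a larger Kit+ effect could not have shown in full.

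Tek, the angiopoietin receptor Tie2, fell with Jag1 in both gates. It was at 5.75 and 6.19 in Kit-J, against 9.31, 8.87 and 9.49 in Kit-D, while Kit+J was at 4.72, 4.54 and 4.44, against 5.86, 6.02 and 5.73 in Kit+D. The measured fall was 3.25 in Kit- and 1.30 in Kit+ cells. All Kit+J arrays lay under the floor, so that, as for Kdr, a larger Kit+ effect could not have shown in full. The difference of -1.95 (standard error 0.28, adjusted p = 0.00617 by limma) held without each array and with only the arrays on stroma (0.0453). Clec14a, an endothelial lectin, had 4.28 and 4.28 in Kit-J, against 6.94, 6.81 and 7.72 in Kit-D, with both Kit+ groups at the floor (difference -2.39, adjusted p = 0.00648). Pecam1, the CD31 of the sort, was at 9.08 and 8.98 in Kit-J, against 9.89, 9.97 and 10.25 in Kit-D, while Kit+J was at 9.92, 9.17 and 9.74, against 7.60, 8.77 and 9.34 in Kit+D. The effect was called in neither gate (-1.003 in Kit- and 1.04 in Kit+ cells), and the difference of -2.04 (adjusted p = 0.0433 by limma) was lost without each of 8 arrays in turn.

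**Figure D4:**
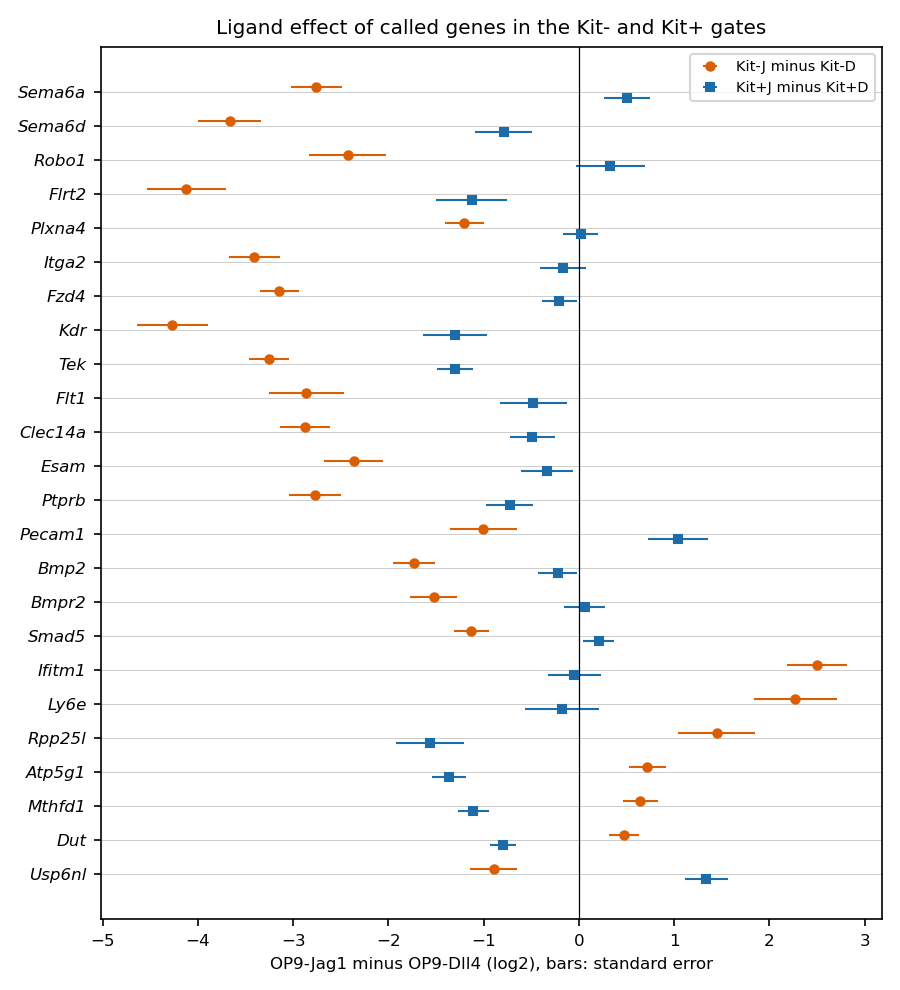
Jag1 minus Dll4 effect (log2, x axis) in Kit- cells (circles) and Kit+ cells (squares) for 24 called genes, with standard errors from limma as bars. For Sema6a through Smad5 the Kit- effect lies left of the Kit+ effect, for Ifitm1 through Dut it lies to the right, and Usp6nl has a Kit- effect of -0.90 and a Kit+ effect of 1.34.

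Promoters were searched for the core of the RBPJ site, GTGGGAA, on both strands (reverse complement TTCCCAC). The windows ran from 250 bases before to 50 after the start site in the RefSeq promoters of GRCm38.p6. Of 398 promoters of 299 called genes 28 held it (7.04%), beside 2097 of 32851 promoters of all genes (6.38%), so the share was close to that of all promoters. The promoters of Kdr and Nox4 are shown because they hold the letters and both genes had a negative difference, with the match in capitals. Kdr lies at chr5:75978406-75978705 on the minus strand, with the match at position -129 relative to the start. Nox4 lies at chr7:87246399-87246698 on the plus strand, with the match on the other strand at position -92. A match in these letters describes the sequence only.
Kdr: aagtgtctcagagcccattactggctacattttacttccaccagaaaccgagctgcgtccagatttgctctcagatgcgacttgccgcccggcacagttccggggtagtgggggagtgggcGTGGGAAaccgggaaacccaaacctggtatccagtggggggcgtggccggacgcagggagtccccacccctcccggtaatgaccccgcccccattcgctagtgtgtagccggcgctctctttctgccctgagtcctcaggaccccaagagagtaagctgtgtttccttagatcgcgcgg
Nox4: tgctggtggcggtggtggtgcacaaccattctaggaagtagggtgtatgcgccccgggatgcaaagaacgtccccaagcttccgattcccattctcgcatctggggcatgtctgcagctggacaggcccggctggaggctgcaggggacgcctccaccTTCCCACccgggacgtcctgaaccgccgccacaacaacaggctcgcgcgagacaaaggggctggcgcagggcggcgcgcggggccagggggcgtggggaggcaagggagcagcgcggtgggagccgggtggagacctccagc

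Of 18 arterial genes, 0 passed the adjusted threshold, near the share of 1.98% over all genes, and 10 had an unadjusted p under 0.05 (median -0.80, 16 below 0), while 7 were lower with Jag1 in the Kit- gate (6.07% of all genes). The ephrin Efnb2, a marker of arteries, was at 6.89 and 7.12 in Kit-J, against 9.15, 9.30 and 9.41 in Kit-D, while Kit+J was at 6.77, 5.91 and 6.63, against 6.69, 7.36 and 7.65 in Kit+D (difference -1.49, adjusted p = 0.0568 by limma). Hey2, a Notch-driven repressor, lay under the floor in all 4 groups. Of 10 venous and capillary genes 1 was called, Nr2f2 (COUP-TFII), which represses arterial fate. It was at 5.77 and 6.12 in Kit-J, against 7.98, 8.22 and 8.21 in Kit-D, while Kit+J was at 5.04, 5.23 and 5.36, against 5.04, 5.74 and 5.88 in Kit+D (difference -1.84, standard error 0.29, adjusted p = 0.00839 by limma).

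Few genes of the Notch pathway were called in the difference. Over all genes 1.98% were called, and 16.5% had an unadjusted p under 0.05. The lists are short, so that counts of 0 or 1 call do not separate them from all genes. Among 12 receptors and ligands 0 were called, with a median difference of 0.09 and 3 at an unadjusted p under 0.05. Jag1 differed by -1.14 (adjusted p = 0.283), Dll4 by -0.88 (0.221) and Notch1 by -0.73 (0.302, all by limma). Among 16 Notch targets the transcription factor Snai2 was called, at 5.73 and 5.62 in Kit-J, against 7.51, 7.82 and 7.36 in Kit-D, while Kit+J was at 5.58, 5.33 and 5.54, against 5.36, 6.08 and 5.74 in Kit+D (difference -1.64, adjusted p = 0.0180; 0.0649 without Kit-J replicate 1). Of the 16 targets, 5 had an unadjusted p under 0.05 in the difference. In the Kit- gate 6 targets were lower and 1 was higher with Jag1, beside 6.07% and 3.3% of all genes. Of 20 Notch modulators 0 were called in the difference (2 at an unadjusted p under 0.05) and 1 was lower in Kit-J.

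In the BMP and TGF-beta pathway, ligands bind kinase receptors that phosphorylate Smad proteins. It held 3 negative calls among 21 genes (median -0.82), beside 1.36% of all genes with a negative call. Bmp2, a ligand, was at 4.75 and 4.40 in Kit-J, against 6.36, 6.06 and 6.50 in Kit-D, while Kit+J was at 5.18, 5.03 and 4.66, against 5.299, 5.14 and 5.09 in Kit+D (difference -1.51, adjusted p = 0.0228 by limma). The receptor gene Bmpr2 differed by -1.59 and the effector gene Smad5 by -1.34, both with all 4 groups above the floor. Bmp2, Bmpr2 and Smad5 were not called without Kit-J replicate 1 (adjusted p = 0.0541, 0.139 and 0.0870 by limma) or when only the arrays on stroma were fitted. Bmp2 and Bmpr2 also lost their call without Kit-D replicate 3, and Bmpr2 without Kit-D replicate 2. Of 25 Wnt pathway genes Fzd4 alone was called, and of 25 integrins Itga2 alone. Col15a1, a basement membrane collagen, was the only call among 20 basement membrane genes (difference -1.35, adjusted p = 0.0460 by limma, kept in 2 of 11 fits without 1 array). Of those 20, 8 were lower with Jag1 in the Kit- gate (6.07% of all genes).

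Apart from Kitl, the genes of this paragraph were chosen after their values were seen. The adaptor genes Gab1 and Bcar1, which link receptors and integrins to kinases, had differences of -1.79 and -1.70. Gab1 was at 6.45 and 6.53 in Kit-J, against 7.94, 8.25 and 8.48 in Kit-D, while Kit+J was at 6.65, 6.71 and 6.48, against 6.21, 6.63 and 6.82 in Kit+D. The junction gene Cgnl1 differed by -2.10, the actin-binding Limch1 by -2.68, the NADPH oxidase Nox4 by -1.77, the phosphatase Ptprd by -2.29 and the ubiquitin ligase Hecw2 by -2.74. For Limch1 and Nox4 both Kit+ groups and Kit-J lay under the floor, and for Ptprd Kit-J and Kit+J did, so these values set Kit-D against background and a Kit+ effect could not show in full. All 7 kept their call without each array in turn and with only the arrays on stroma (adjusted p from 0.0330 to 0.0494 by limma). Kitl, the ligand of Kit, was at 3.76 and 3.69 in Kit-J, against 7.55, 7.44 and 8.34 in Kit-D, while Kit+J was at 3.68, 3.38 and 3.86, against 3.94, 4.56 and 5.58 in Kit+D. Its difference of -2.99 (standard error 0.48, adjusted p = 0.00945) compares Kit-D with groups at the floor.

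Among the other named negative genes, Gpx8, an endoplasmic reticulum peroxidase, had the largest difference (-3.64, standard error 0.68, adjusted p = 0.0180 by limma; 0.0936 without Kit-J replicate 1). Its Kit-J arrays were 4.43 and 6.26, against 8.18, 9.04 and 8.58 in Kit-D, and the Kit+J arrays 6.32, 6.43 and 4.98, against 4.92, 5.49 and 6.17 in Kit+D. The histone variant gene Macroh2a2 differed by -3.02 (standard error 0.45, adjusted p = 0.00648), Septin10, a filament-forming GTPase, by -2.98, the neural cadherin Cdh2 by -1.73, the transcription factors Foxc2, Mecom and Hoxa5 by -2.94, -2.35 and -2.13, and the cell cycle inhibitor Cdkn1c by -1.56. Kit-D was above all other arrays in each of these genes. For Hoxa5 the means of Kit-J (4.96), Kit+J (4.94) and Kit+D (4.77) lay under the floor, so a Kit+ effect could not show. The Kit+J and Kit+D means of Mecom (5.03 and 5.16) and Cdh2 (5.08 and 5.42) lay just above the floor. Macroh2a2 and Hoxa5 kept their call without each array in turn, whereas Septin10 kept it in 4 of 11 such fits, Cdh2 and Mecom in 6, Foxc2 in 8 and Cdkn1c in 9, and all 5 lost it without Kit-J replicate 1 (adjusted p up to 0.212).

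Positive differences often showed Kit+D apart. Atp5g1, a subunit of mitochondrial ATP synthase, was at 9.63 and 9.19 in Kit-J, against 8.59, 8.68 and 8.81 in Kit-D, while Kit+J was at 9.18, 9.26 and 9.12, against 10.51, 10.84 and 10.31 in Kit+D. It rose with Jag1 by 0.72 in Kit- cells and fell by 1.36 in Kit+ cells (difference 2.08, standard error 0.26, adjusted p = 0.00283 by limma; 0.0330 with only the arrays on stroma). Its paralog Atp5g2 also moved in opposite directions (0.55 and -0.51, difference 1.05, adjusted p = 0.0121), whereas Atp5g3 differed by 0.15 (adjusted p = 0.814). Near-identical mature subunits are encoded by the 3 genes, and cross-hybridisation was not tested.

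Mthfd1, a folate enzyme that supplies 1-carbon units for nucleotides, was at 7.10 and 6.75 in Kit-J, against 6.55, 5.95 and 6.35 in Kit-D, while Kit+J was at 6.998, 6.96 and 6.86, against 7.99, 8.16 and 8.0 in Kit+D (difference 1.75, standard error 0.25, adjusted p = 0.00441 by limma). Other nucleotide synthesis genes called, chosen after their values were seen, were Dut (1.27), Cad (1.60) and Atic (0.94), with Kit+D above all others in each. Genes of nucleotide synthesis were not counted as a list, and Tyms, another of them, was not called (0.67, adjusted p = 0.182 by limma). Dut kept its call without each array in turn, Cad in 9 of 11 such fits and Atic in 2. Of 23 replication and mitosis genes 0 were called (median 0.36, 20 above 0, 5 at an unadjusted p under 0.05). Rpp25l had the largest positive difference among the named calls, 3.01 (standard error 0.54, adjusted p = 0.0151 by limma). It was at 8.36 and 6.76 in Kit-J, against 5.77, 6.18 and 6.38 in Kit-D. Kit+J was at 6.26, 6.20 and 6.17, against 7.69, 8.51 and 7.11 in Kit+D. The Kit-J arrays differed by more than 1 log2 unit, and the call was lost without Kit-J replicate 1 (0.0698).

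In 8 of the 395 genes the ligand effect was called in both gates and in opposite directions. Atp5g1, Atp5g2, Lrwd1, Mthfd1 and Rpp25l were higher with Jag1 in Kit- and lower in Kit+ cells, and Chd1, Spast and Usp6nl the reverse. Usp6nl, a GTPase-activating protein of endosomal traffic, was at 7.15 and 7.75 in Kit-J, against 8.45, 8.40 and 8.19 in Kit-D, while Kit+J was at 8.24, 8.53 and 8.01, against 6.50, 7.25 and 7.02 in Kit+D (difference -2.24, standard error 0.33, adjusted p = 0.00648 by limma). In 9 genes both effects were negative, with a more negative value in the Kit- gate, among them the stress kinase Sgk1 (-2.92 in Kit- and -1.03 in Kit+ cells). For Tek and Klhl4 the Kit+J means lay under the floor, so the Kit+ effect of Klhl4 (-1.88, beside -4.05 in Kit- cells) is limited by background.

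Interferon-stimulated genes, 23 measured, all had a difference above 0 (median 0.95), beside 11117 of all 19937 genes, but Ifitm1 alone was called. Ifitm6 and Mx1 lay at the floor in all 4 groups, so their positive values are not read as expression. In the Kit- gate 4 of the 23 genes were higher in Kit-J (3.3% of all genes), and in the Kit+ gate 0 were called. Their mean signal was 6.65 to 6.82 in Kit-J, against 5.35 to 6.27 in Kit-D, while Kit+J spanned 6.09 to 6.24, against 5.80 to 7.17 in Kit+D, so that the Kit+D arrays overlapped every other group. Ifitm2, a close paralog, was at 10.27 and 10.77 in Kit-J, against 9.61, 9.93 and 10.00 in Kit-D, while Kit+J was at 10.83, 10.63 and 10.05, against 10.68, 10.98 and 10.71 in Kit+D (difference 0.95, adjusted p = 0.151 by limma). Ly6e, a surface protein induced by interferon and outside that list, differed by 2.45 (adjusted p = 0.0478), and its call was lost without each of 9 arrays in turn.

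Of 20 blood transcription factors the 1 call was the negative Mecom, and of 19 haematopoietic receptors 0 were called (median 0.74; 2 at an unadjusted p under 0.05), where 0.622% of all genes had a positive call and 1.36% a negative one, so that these counts are near the share over all genes. Runx1, needed for the first blood stem cells, was at 7.82 and 8.78 in Kit-J, against 7.80, 7.05 and 6.92 in Kit-D, while Kit+J was at 7.85, 7.67 and 7.74, against 8.75, 7.86 and 5.80 in Kit+D (difference 0.76, adjusted p = 0.674 by limma). Myb, a transcription factor of blood progenitors, was higher with Jag1 in Kit- cells by 2.29 (adjusted p = 0.0153), and its difference of 2.02 was not called (0.163).

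Markers of other cells differed between groups, and some lists also between arrays of the same group. The mean of 24 primordial germ cell genes was 7.50 to 7.84 in Kit-J, against 5.31 to 6.25 in Kit-D. Kit+J spanned 7.88 to 8.28, against 5.61, 7.815 and 8.47 in Kit+D replicates 1, 2 and 3. In the Kit- gate 11 of these 24 genes were higher with Jag1 (3.3% of all genes), and 0 were called in the difference (1.98% of all genes; median 1.203, 23 above 0, 3 at an unadjusted p under 0.05). Dppa5a, a germ cell gene, was at 11.66 and 11.44 in Kit-J, against 5.86, 7.37 and 8.91 in Kit-D, while Kit+J was at 11.78, 11.73 and 11.86, against 8.002, 11.51 and 11.87 in Kit+D. The germ cell mean of Kit-J lay above all Kit-D arrays and below all Kit+J arrays, and its part in the differences above was not tested. Tdrd1 lay at the floor in all 4 groups.

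The mean of 20 macrophage and myeloid genes was 5.69 to 5.73 in Kit-J, against 4.74 to 6.50 in Kit-D, while Kit+J spanned 5.10 to 5.45, against 4.58 to 7.73 in Kit+D, with Adgre1 and Ms4a7 at the floor in all 4 groups by their means. For 22 stromal and mesenchymal genes it was 5.40 to 5.67 in Kit-J, against 5.99 to 6.93 in Kit-D, while Kit+J spanned 5.06 to 5.71, against 5.11 to 6.30 in Kit+D (median difference -0.65, 0 called, 4 at an unadjusted p under 0.05, Lum and Fap at the floor). For 11 erythroid genes it was 5.79 to 6.10 in Kit-J, against 6.01 to 7.06 in Kit-D, while Kit+J spanned 5.42 to 5.71, against 6.37 to 7.50 in Kit+D. The embryonic globin Hbb-y was lower with Jag1 in both gates (-3.15 and -5.91) and its difference of 2.76 was not called (adjusted p = 0.104). For 10 neural crest and neuronal genes the mean was 4.87 in both Kit-J arrays, against 5.43 to 5.50 in Kit-D, while Kit+J spanned 4.71 to 5.04, against 4.84 to 4.86 in Kit+D. Of these 10 genes 3 were lower with Jag1 in the Kit- gate (6.07% of all genes), among them Fabp7 (-3.12) and Stmn2 (-1.47). In the difference 0 were called (3 at an unadjusted p under 0.05), and Phox2a, Elavl4 and Ret were at the floor in all 4 groups. Stromal and neural means were higher in every Kit-D array than in every Kit-J and Kit+J array, and the part of these cells in the results was not tested.

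**Figure D5:**
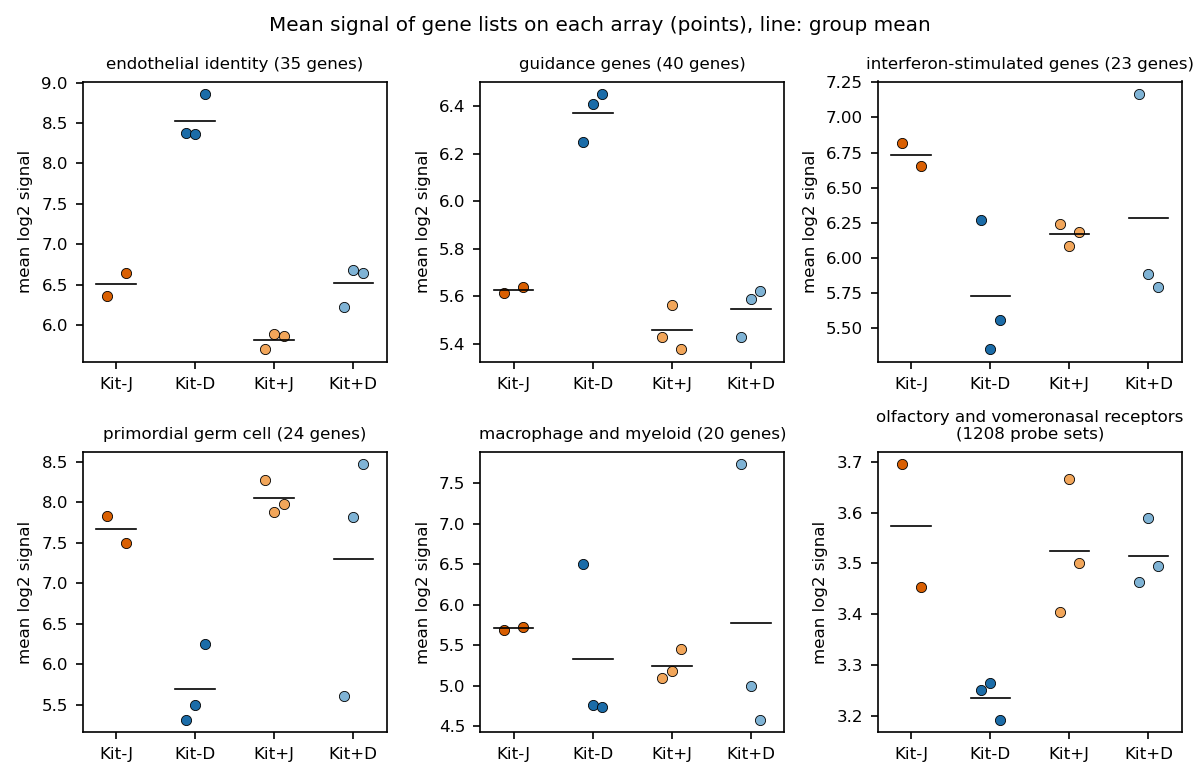
Mean log2 signal (y axis) of 5 gene lists and of 1208 olfactory and vomeronasal receptor probe sets on each of the 11 arrays (points), grouped by gate and ligand, with a line at each group mean. Endothelial identity and guidance genes are high in Kit-D alone, germ cell genes are low in Kit-D and on 1 Kit+D array, and the receptor probe sets are lowest in Kit-D.

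Fresh cells were set beside the called genes as a description, because the effects of culture and of the separate series cannot be told apart. In 208 of the 271 negative genes (76.8%) the fresh Kit- mean lay nearer to Kit-D than to Kit-J, beside 57.4% of all genes. Kit-D exceeded fresh Kit- cells by a median of 0.49 and the median of Kit-J minus fresh Kit- was -1.08. Sema6a, for example, was at 8.44, 8.43 and 8.12 in fresh Kit- and at 5.18, 5.12 and 5.59 in fresh Kit+ cells. In the 124 positive genes, Kit+D exceeded fresh Kit+ cells by a median of 0.45.

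At the threshold, Dusp6 and Eif4e1b were just inside (adjusted p = 0.0495 by limma for both) and Acbd3 and Cnn2 just outside (0.0502).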

How the data were processed

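RNA of pooled, sorted AGM cells was amplified and hybridised to Affymetrix Mouse Gene 1.0 ST arrays. The authors deposited log2 values summarised with RMA (version not given in the sources used here), which corrects background, equalises the arrays and can compress dim signals. Of 34760 probe sets, 21640 carried 1 symbol, 1321 several and 11799 none, by the platform table (21553 matched RefSeq genes by Entrez number). The brightest probe set was kept for each of 19937 genes. A limma model (limma 3.58.1 in R 4.3.3) of 6 group means over 17 arrays had 11 residual degrees of freedom, and the spread is shared between groups, Kit-J included. Calls had an adjusted p under 0.05 (Benjamini-Hochberg). Raw intensities were not used here, and the number of arrays limits the precision. The fit was run on simulated data with independent noise and the same spread per gene in all groups. That run cannot judge shared cultures or spreads that differ between groups. Plots used Python 3.11.15 and matplotlib 3.10.9.

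Named genes were the 8 largest called differences in each direction, the 6 largest above the floor in all 4 groups, Sema6a, Itga2, Ifitm1, the genes the study names, and up to 3 genes with the smallest p of each of 31 lists, without provisional symbols and small RNAs. Named after their values were seen were Hecw2, Limch1, Ptprd, Cgnl1, Nox4, Gab1, Bcar1, Hoxa5, Mthfd1, Usp6nl, Arhgef10, Cask, Pecam1, Flt1, Esam, Ptprb, Mmrn2, Stab2, Robo1, Plxna4, Klhl4, Foxc2, Dut, Cad, Atic, Atp5g2, Mrps12, Atp5g3, Sos1, Rala, Sgk1, Lrwd1, Chd1 and Spast. The members and lists were chosen with earlier results of these data known. Alternatives were other array sets, variance priors, scalings, filters, probe set rules, array weights and replicate blocks.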

Additional observations from a re-analysis of the deposited data

Results flagged for a closer look

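For the named genes below, the test of the difference between the Kit- and the Kit+ ligand effect passed the threshold (limma, adjusted p under 0.05 over all genes tested), and the log2 difference is given in parentheses. It was positive for Rpp25l (3.01), Ifitm1 (2.55), Ly6e (2.45), Ebi3 (2.21), Slc9a3r1 (2.16), Commd5 (2.15), Pigyl (2.14), Atp5g1 (2.08), Aldoa (1.19), Mthfd1 (1.75), Dut (1.27), Cad (1.60), Atic (0.94), Atp5g2 (1.05), Mrps12 (1.35). It was negative for Gpx8 (-3.64), Sema6a (-3.26), Itga2 (-3.24), Macroh2a2 (-3.02), Flrt2 (-3.00), Kitl (-2.99), Septin10 (-2.98), Kdr (-2.97), Cdh2 (-1.73), Tek (-1.95), Clec14a (-2.39), Nr2f2 (-1.84), Snai2 (-1.64), Sema6d (-2.88), Col15a1 (-1.35), Mecom (-2.35), Cdkn1c (-1.56), Smad5 (-1.34), Bmp2 (-1.51), Bmpr2 (-1.59), Fzd4 (-2.94), Hecw2 (-2.74), Limch1 (-2.68), Ptprd (-2.29), Cgnl1 (-2.10), Nox4 (-1.77), Gab1 (-1.79), Bcar1 (-1.70), Hoxa5 (-2.13), Usp6nl (-2.24), Arhgef10 (-1.87), Cask (-2.03), Pecam1 (-2.04), Flt1 (-2.38), Esam (-2.03), Ptprb (-2.05), Mmrn2 (-2.57), Stab2 (-1.25), Robo1 (-2.75), Plxna4 (-1.22), Klhl4 (-2.17), Foxc2 (-2.94), Sos1 (-1.35), Rala (-1.53). The differences rest on 2 Kit-J arrays, and no explanation for them was tested.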

How the results depend on the processing

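The ligand effect difference was called in 395 genes, the Kit- ligand effect in 1869 and the Kit+ ligand effect in 449. With only the arrays on stroma the counts were 44, 748 and 41. Scaling to 6 housekeeping genes gave 147 for the difference, and array weights gave 161 for the difference and 1180 for the Kit- effect. With values under the floor set to it, the Kit- effect gave 1219 and the Kit+ effect 296, and with a log2 size of at least 1 they gave 1056 and 196. Without each array in turn the difference ranged from 91 to 811, the Kit- effect from 504 to 2728 (both lowest when the first Kit-J array was dropped and highest when the second was) and the Kit+ effect from 113 (without Kit+D replicate 2) to 1243 (without Kit+D replicate 3). The ligand effect difference also gave 116 to 144 when the third or the second Kit-D array was dropped, 209 when the third Kit+J array was, and 218 or 763 when the second or the third Kit+D array was. Without the third array of both OP9-Dll4 groups, whose records conflict, the Kit- effect gave 1079 and the Kit+ effect 980. Without those and the first Kit+D array, which stood apart in markers of other cells, the difference gave 165 (77 shared with the 395) and the Kit+ effect 226. The causes were not tested. Housekeeping scaling left 24 genes higher and 484 lower for the Kit+ effect, and another quantile normalization 157 and 229, against 115 and 334.

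With the replicate number as a fixed replicate block, the ligand effect difference was called in 0 genes (limma; 2104 at an unadjusted p under 0.05), the Kit- ligand effect in 456 and the Kit+ ligand effect in 1. With stroma and number as a random replicate block the counts were 1, 742 and 40, with an estimated correlation within blocks of -0.0994. Same-numbered Kit- and Kit+ arrays deviated from their group means with correlations of -0.11 and -0.26 on OP9-Jag1 and 0.46, 0.18 and 0.29 on OP9-Dll4, so all OP9-Dll4 pairs and no OP9-Jag1 pair were above 0.1. The 2 Kit-J arrays deviate from their mean in mirror image, so the OP9-Jag1 values are not separate estimates. Each OP9-Dll4 array correlated best with its own number. Both Kit fractions of a stroma were sorted from the same cultures, but the labels do not tie the numbers to them, and the numbers were not taken to pair the arrays. Of the 395 genes, 56 were called without every array in turn, 32 of these also with only the arrays on stroma. Of the 59 named called genes, 20 kept their call with only the arrays on stroma, 0 with the fixed replicate block and 1 with the random one. Without 1 Kit-D, Kit+J or Kit+D array, 35 to 59 kept it, and with array weights 37 did. Fits without a Kit-J array leave 1 array in that group and are not in this range. Under the alternatives run 0 changed direction, but several of them leave the group means unchanged, so that the direction could not change there.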
